A study of Mus musculus with 8 samples.

Results

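Uptake of dying cells by Kupffer cells was followed through 10 genes: the phosphatidylserine receptors Timd4 and Cd300lf, the receptor kinases Axl and Mertk, the bridging ligands Gas6, Pros1 and Mfge8, and the engulfment adaptors Elmo1, Dock1 and Gulp1. The members were selected by gene symbol, though with earlier results of these data known, and all 10 were found among 56691 genes in the table. All 10 were also among the 15870 genes with enough counts to be tested. Their identifiers in the table are Timd4 (ENSMUSG00000055546), Cd300lf (ENSMUSG00000047798), Axl (ENSMUSG00000002602), Mertk (ENSMUSG00000014361), Gas6 (ENSMUSG00000031451), Pros1 (ENSMUSG00000022912), Mfge8 (ENSMUSG00000030605), Elmo1 (ENSMUSG00000041112), Dock1 (ENSMUSG00000058325) and Gulp1 (ENSMUSG00000056870).

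Kupffer cells are the macrophages that live in the liver sinusoids. A dying cell exposes the lipid phosphatidylserine on its surface, and macrophages bind it directly, through Tim-4 (the product of Timd4) and CD300f (the product of Cd300lf), or through bridging proteins. Gas6 and protein S (the product of Pros1) link the lipid to the TAM receptor kinases Tyro3, Axl and Mertk, and MFG-E8 links it to integrins. ELMO1 and DOCK1 form an exchange factor complex that activates the GTPase Rac1 and reshapes the actin skeleton, and GULP1 is an adaptor that binds engulfment receptors such as LRP1.

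RNA was taken from the livers of mice that carried metastases of B16F10, a mouse melanoma line, at day 7 after its injection. There were 4 libraries from wild-type mice (WT) and 4 from mice without Vsig4 (VSIG4 KO), all tumour-bearing, so the design holds no tumour-free liver. Vsig4 encodes a complement receptor of Kupffer cells. Living cells positive for CD45 and Tim-4 protein were sorted, so Timd4 encodes the protein that the gate itself selected. The labels name no age, sex, strain or further allele, nor whether each library is a different mouse. A p-value therefore reflects library-to-library spread only, part of which may be technical.

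Total counts ran from 15264043 to 19513844 per library. Vsig4 had 1392 to 2890 CPM (counts scaled to the library's size and TMM factor) in WT and 0.111 to 0.501 CPM in KO, matching the labels. The 8 Kupffer markers, Clec4f and Cd5l among them, had counts in every library and summed to 18085.5 to 31705 CPM in WT and 7014 to 21748 CPM in KO (exact permutation p = 0.171). In each of the 4 same-numbered pairs this Kupffer sum was smaller for KO (p = 0.125 by exact sign flips, the lowest that 4 pairs allow). The 10 melanoma markers, Pmel, Tyrp1 and Dct among them, also had counts in every library. Their sum was lowest in WT 1 and WT 2 (485 and 415 CPM), highest in KO 3 (12376 CPM) and 2437 to 6449.6 CPM in the other 5 libraries (exact permutation p = 0.229 between genotypes). Stellate cell markers summed to 79.7 to 197 CPM in WT and 41.4 to 56.1 CPM in KO, a separation that of its 9 genes only Dcn showed by itself, hepatocyte markers to 408 to 1865 and 167 to 722 CPM, and endothelial markers to 245 to 570.0 and 122 to 367 CPM, with counts for every marker of these 3 lists in every library. T cell markers summed to 25.6 to 121 CPM, B cell markers to 18.1 to 45.4 CPM, neutrophil markers to 46.7 to 106 CPM, monocyte markers to 261 to 513 CPM and dendritic cell markers to 178 to 305 CPM over the 8 libraries. The platelet gene Gp1bb was at 0 in all 8 libraries and the neutrophil gene Ly6g at 0 in the 4 WT libraries.

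The promoters are shown for 4 genes, since the values below put Timd4 and Axl on one side and Mfge8 and Dock1 on the other. Each line gives the 250 bases before the transcript start from RefSeq (GRCm38.p6), 5′ to 3′ on the strand of the gene. Capitals mark a match, on either strand, to one of 5 motifs: the PU.1 core GAGGAA, the E-box CATGTG that MITF can bind, the palindromic E-box CACGTG, the AP-1 site TGANTCA and the interferon response pair (GAAA, any 2 bases, GAAA).
Timd4 (chr11:46810549-46810798, plus strand): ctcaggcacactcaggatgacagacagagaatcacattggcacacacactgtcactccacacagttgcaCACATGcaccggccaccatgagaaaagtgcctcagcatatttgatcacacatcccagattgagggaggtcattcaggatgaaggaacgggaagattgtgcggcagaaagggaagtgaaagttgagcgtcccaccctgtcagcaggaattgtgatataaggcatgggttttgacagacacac
Axl (chr7:25788734-25788983, minus strand): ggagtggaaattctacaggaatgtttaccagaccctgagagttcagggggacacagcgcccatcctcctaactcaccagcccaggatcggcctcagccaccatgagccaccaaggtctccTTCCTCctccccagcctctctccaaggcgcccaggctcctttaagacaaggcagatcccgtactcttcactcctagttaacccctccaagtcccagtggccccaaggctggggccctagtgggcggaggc
Mfge8 (chr7:79149061-79149310, minus strand): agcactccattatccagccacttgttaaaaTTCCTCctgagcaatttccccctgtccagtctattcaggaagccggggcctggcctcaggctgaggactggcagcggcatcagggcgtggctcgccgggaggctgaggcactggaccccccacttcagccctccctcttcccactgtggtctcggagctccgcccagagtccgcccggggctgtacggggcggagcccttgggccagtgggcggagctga
Dock1 (chr7:134670437-134670686, plus strand): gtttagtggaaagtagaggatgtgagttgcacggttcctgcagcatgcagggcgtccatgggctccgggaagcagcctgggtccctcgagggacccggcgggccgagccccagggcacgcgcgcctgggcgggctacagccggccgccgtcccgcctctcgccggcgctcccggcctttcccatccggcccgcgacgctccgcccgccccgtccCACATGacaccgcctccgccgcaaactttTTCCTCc
PU.1 is a transcription factor of macrophages and MITF one of pigment cells. The PU.1 core was found before Axl, Mfge8, Dock1 and Cd300lf, and in 23.3% of all 32851 RefSeq promoter windows of this length. The CATGTG box was found before Timd4, 181 bases upstream of the start, and before Dock1, 36 bases upstream, and in 12.3% of all windows. The other 3 motifs, present in 2.98% to 6.75% of all windows, had no match before any of the 10 genes. Neither motif was found on one side only. A match is a description of letters and says nothing of the factors.

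The receptors were the most abundant members. On the FPKM scale, which divides by gene length and so allows levels of different genes to be compared, Timd4 stood at 310.3 ± 78.1 in WT (SD, n = 4) and Axl at 259 ± 79.9, and their ranges over the WT libraries overlapped. Mertk followed at 146 ± 10.3 FPKM, Cd300lf at 43.1 ± 5.44 and Pros1 at 21.7 ± 4.73, each below the one before it in all WT libraries. Gas6, Dock1, Elmo1, Gulp1 and Mfge8 came last, at 7.04 ± 2.09, 4.92 ± 0.928, 4.74 ± 1.15, 4.43 ± 4.22 and 2.04 ± 1.55 FPKM, with ranges that overlapped from one to the next. In KO the first 5 places were the same, from Timd4 at 212 ± 92.6 FPKM to Pros1 at 16.5 ± 4.48 FPKM. Only Mertk and Cd300lf were separate neighbours there, and Gulp1 moved up to the sixth place (9.71 ± 7.34 FPKM). That mean included 20.2 FPKM in KO 3. In KO 1 and KO 2 Gulp1 (4.21 and 5.15 FPKM) was below Gas6 (7.5 and 8.23 FPKM). In WT 3 and WT 4 Gulp1 (8.24 and 7.92 FPKM) was above Gas6 (5.86 and 5.01 FPKM).

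In the tests without the replicate number, none of the 10 members differed between the genotypes beyond the spread of the libraries. With 4 libraries per genotype this does not show that levels were equal. In the edgeR quasi-likelihood test 0 of 10 passed an adjusted p of 0.05, a threshold that 0.00630% of all tested genes passed (1 gene, Vsig4). Without adjustment 0 of 10 had p under 0.05, where 4.23% of genes did with higher and 4.56% with lower values in KO. DESeq2 called 0 of 10 members and 0.391% of genes (0.189% higher, 0.202% lower), and edgeR without WT 1, WT 2 and KO 3 called 0 of 10 and 0.00599% of genes. No member had genotypes that did not overlap, which was the case for 5.56% of all genes. Values were lower in KO for 7 members and higher for Mfge8, Dock1 and Gulp1. With the replicate number as a block, which is right only if same-numbered libraries belong together, 5 of 10 passed, where 14.0% of all genes did: Timd4, Axl and Pros1 fell (5.01% of genes fell) and Mfge8 and Gulp1 rose (8.98% rose). The adjusted p of these 5 was 0.0627 to 0.155 when number 1, 2 or 3 was left out, fits in which the calls over all genes went from 2220 to 207, 2 and 1. The log2 fold changes in these fits were -0.86, -0.80 and -0.52 for Timd4, -0.51, -0.52 and -0.42 for Pros1, and 1.02, 1.02 and 1.25 for Mfge8.

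**Figure D1:**
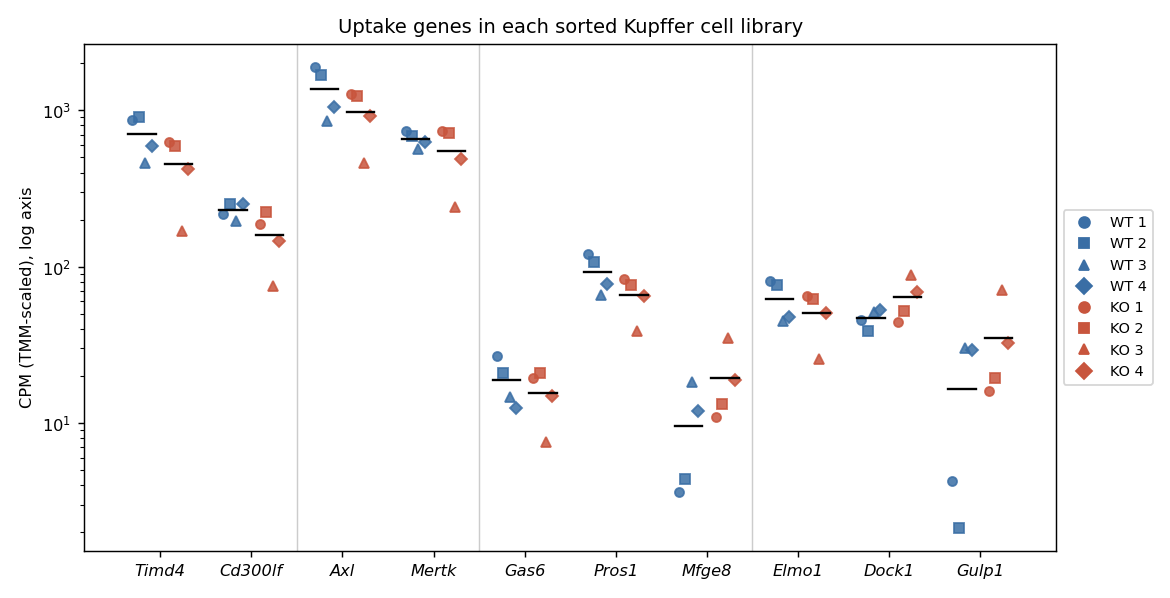
CPM of the 10 uptake genes in each library (log axis), blue for WT and red for KO, with the mean of 4 libraries as a black bar; marker shape gives the library number. The genotypes overlap for every gene, and KO 3 is the lowest library for Timd4, Cd300lf, Axl, Mertk, Gas6, Pros1 and Elmo1 and the highest for Mfge8, Dock1 and Gulp1.

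Timd4, the gene of the sorted receptor, had 862, 910.2, 461 and 587 CPM in WT 1 to 4 and 625, 594, 169.7 and 419 CPM in KO 1 to 4. WT 1 and WT 2 were above all KO libraries, WT 3 and WT 4 lay among them, and KO 3 was the lowest of all, 5.36-fold below WT 2. The means were 705 ± 216 CPM across WT against 452 ± 209 CPM across KO (log2 fold change -0.64 ± 0.401 (SE), edgeR adjusted p = 0.492). With the block the log2 fold change was -0.75 ± 0.176 (edgeR adjusted p = 0.0354). In bulk RNA a smaller share of Tim-4-positive cells and less Timd4 RNA per cell cannot be told apart.

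Cd300lf, whose product CD300f binds phosphatidylserine and carries inhibitory motifs in its tail, had 218, 252, 195 and 253 CPM in WT 1 to 4 and 187, 225, 75.3 and 146 CPM in KO 1 to 4. KO 1, KO 3 and KO 4 were below every WT library, while KO 2 lay inside the WT range. Its log2 fold change was -0.54 ± 0.296 (edgeR adjusted p = 0.492), and -0.63 ± 0.198 with the block (edgeR adjusted p = 0.0685). Without KO 3 the unblocked value was -0.30. Cd300lf varied less among the WT libraries (229 ± 28.3 CPM) than Timd4 did.

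Axl, a TAM receptor that is activated by Gas6, had 1892, 1674, 849.6 and 1056 CPM in WT 1 to 4 and 1263, 1231, 462 and 920.0 CPM in KO 1 to 4. As for Timd4, WT 1 and WT 2 were the highest and KO 3 the lowest. The log2 fold change was -0.50 ± 0.372 (edgeR adjusted p = 0.517), and -0.53 ± 0.139 with the block (edgeR adjusted p = 0.0459).

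Mertk, the TAM receptor best known for the clearance of apoptotic cells by macrophages, had 743, 687, 562 and 627 CPM in WT 1 to 4 and 742, 716, 241 and 485 CPM in KO 1 to 4. The WT libraries were close together, KO 1 and KO 2 lay inside their range, and KO 3 and KO 4 were below it, KO 3 by far. The log2 fold change was -0.26 ± 0.323 (edgeR adjusted p = 0.664), and -0.018 without KO 3. The ratio of Mertk to Axl in FPKM was 0.456 and 0.476 in WT 1 and WT 2, 0.768 and 0.689 in WT 3 and WT 4, and 0.604 to 0.682 in the KO libraries. The genotypes overlapped in this ratio (log2 difference 0.14, exact 2-sided permutation p = 0.457, where 0.0286 is the smallest possible). WT 1 and WT 2 thus had more Axl for their Mertk than the other 6 libraries.

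Gas6, the TAM ligand that binds all 3 receptors, was a low transcript, with 27.0, 20.9, 14.6 and 12.5 CPM in WT 1 to 4 and 19.4, 20.9, 7.52 and 14.8 CPM in KO 1 to 4 (log2 fold change -0.26 ± 0.350, edgeR adjusted p = 0.687). KO 1, KO 2 and KO 4 all lay within the WT range, and the log2 fold change was -0.035 without WT 1 and -0.036 without KO 3. Of its exonic bases in GENCODE M21, 1.33% overlap Tmem255b on the other strand, whose reads could not be told apart without the strand setting.

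Pros1, which encodes protein S, a plasma anticoagulant and ligand of Mertk and Tyro3, had 120.4, 107, 66.3 and 77.1 CPM in WT 1 to 4 and 83.4, 76.7, 38.7 and 65.3 CPM in KO 1 to 4. It had the same order as Axl in having WT 1 and WT 2 on top and KO 3 at the bottom. The log2 fold change was -0.49 ± 0.270 (edgeR adjusted p = 0.492), and -0.51 ± 0.104 with the block (edgeR adjusted p = 0.0284). The ratio of Gas6 to Pros1 in FPKM was 0.261 to 0.359 in WT and 0.312 to 0.437 in KO, so protein S mRNA exceeded Gas6 mRNA per length in all 8 libraries (log2 difference between genotypes 0.21, exact permutation p = 0.171). Hepatocytes and endothelial cells are known sources of protein S, and their marker sums are given above. The part of such cells in the ligand values was not tested.

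Mfge8, whose secreted product bridges phosphatidylserine to integrins, went the other way, with 3.63, 4.38, 18.2 and 12.0 CPM in WT 1 to 4 and 10.9, 13.2, 34.8 and 18.8 CPM in KO 1 to 4. WT 1 and WT 2 were the lowest and KO 3 the highest, 9.59-fold above WT 1. Its log2 fold change was 1.02 ± 0.570 (edgeR adjusted p = 0.492), and 1.16 ± 0.191 with the block (edgeR adjusted p = 0.0254).

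Elmo1, which encodes an ELMO scaffold, followed the receptors, with 80.6, 76.0, 44.6 and 47.8 CPM in WT 1 to 4 and 64.6, 62.2, 25.6 and 50.6 CPM in KO 1 to 4 (log2 fold change -0.30 ± 0.312, edgeR adjusted p = 0.615). Its partner Dock1 did not: it had 45.7, 38.8, 51.1 and 52.9 CPM in WT 1 to 4 and 44.4, 52.3, 88.5 and 69.3 CPM in KO 1 to 4 (log2 fold change 0.43 ± 0.216, edgeR adjusted p = 0.492). In KO 3 the 2 genes of this complex were furthest apart, with Elmo1 at its lowest and Dock1 at its highest value of the 8 libraries. Leaving out KO 3 moved Elmo1 to -0.078 and Dock1 to 0.23 on the log2 scale. Of the exonic bases of Elmo1, 3.2% overlap Gm32036 on the other strand.

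Gulp1, the adaptor, had the widest range of the members, with 4.27, 2.13, 30.3 and 29.2 CPM in WT 1 to 4 and 16.03, 19.3, 71.4 and 32.6 CPM in KO 1 to 4. That is a 33.5-fold span from WT 2 to KO 3. The 4 WT libraries fell into a low pair (WT 1 and WT 2) and a high pair (WT 3 and WT 4) that was above KO 1 and KO 2. For Gulp1 the log2 fold change was 1.08 ± 0.842 (edgeR adjusted p = 0.529), and 1.48 ± 0.404 with the block (edgeR adjusted p = 0.0491).

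Across the libraries of both genotypes, 7 members tended to be high where Mfge8, Dock1, Gulp1 and the melanoma sum were low. Cd300lf followed this order least (rho = -0.619 over 8 libraries, exact permutation p = 0.115), with its highest value in WT 4. When the libraries were ranked by melanoma sum, the CPM of Timd4 fell at every step and that of Gulp1 rose at every step (Spearman rho -1.0 and 1.0 over 8 libraries). WT 1 and WT 2 stood apart at the low end of melanoma content, so r is given first over the other 6 libraries, with exact permutation p adjusted over the 10 members. Gulp1 (r = 0.987, p = 0.00139, adjusted p = 0.00463; rho = 1.0, p = 0.00278, adjusted p = 0.00926), Mfge8 (r = 0.944, p = 0.00417, adjusted p = 0.00694; rho = 0.943, p = 0.0167, adjusted p = 0.0278) and Dock1 (r = 0.932, p = 0.00556, adjusted p = 0.00794; rho = 0.83, p = 0.0583, adjusted p = 0.0729) were higher in libraries with more melanoma RNA. Timd4 (r = -0.915, p = 0.00139, adjusted p = 0.00463; rho = -1.0, p = 0.00278, adjusted p = 0.00926), Mertk (r = -0.945, p = 0.00139, adjusted p = 0.00463; rho = -1.0, p = 0.00278, adjusted p = 0.00926), Axl (r = -0.946, p = 0.00417, adjusted p = 0.00694; rho = -0.943, p = 0.0167, adjusted p = 0.0278) and Pros1 (r = -0.929, p = 0.00278, adjusted p = 0.00694; rho = -0.943, p = 0.0167, adjusted p = 0.0278) were lower there by an exact permutation test. The other members were Elmo1 (r = -0.936, p = 0.00972, adjusted p = 0.0122; rho = -0.83, p = 0.0583, adjusted p = 0.0729), Gas6 (r = -0.905, p = 0.0194, adjusted p = 0.0216; rho = -0.714, p = 0.136, adjusted p = 0.151) and Cd300lf (r = -0.789, p = 0.0708, adjusted p = 0.0708; rho = -0.60, p = 0.242, adjusted p = 0.242), all by exact permutation. The smallest p possible with 6 libraries is 0.00139 for r and 0.00278 for rho. Over all 8 libraries each r had the same sign as over 6, between -0.911 (Pros1) and -0.633 (Cd300lf) for the 7 negative ones and between 0.817 (Dock1) and 0.990 (Gulp1) for the other 3. All CPM of a library share one total, and any added melanoma RNA makes the share of each other transcript smaller, for which the p makes no allowance. The share of all tested genes that followed the melanoma sum as closely was not computed. These relations are therefore not shown to be particular to uptake genes. The part of melanoma RNA in the member values was not tested.

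**Figure D2:**
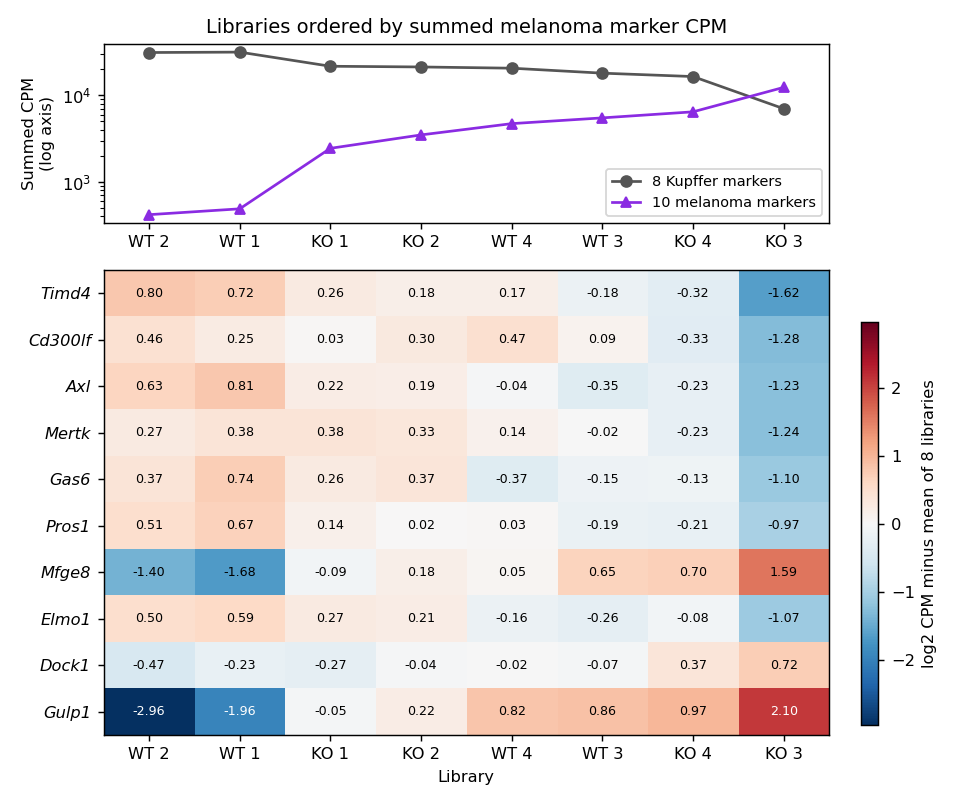
Upper panel: summed CPM of 8 Kupffer and 10 melanoma markers (log axis) in the 8 libraries, ordered by melanoma sum. Lower panel: log2 CPM of each uptake gene minus its mean over the 8 libraries (numbers and colour); Timd4 goes from 0.80 in WT 2 to -1.62 in KO 3, while Gulp1 goes from -2.96 to 2.10, and WT and KO libraries are mixed in the order.

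**Figure D3:**
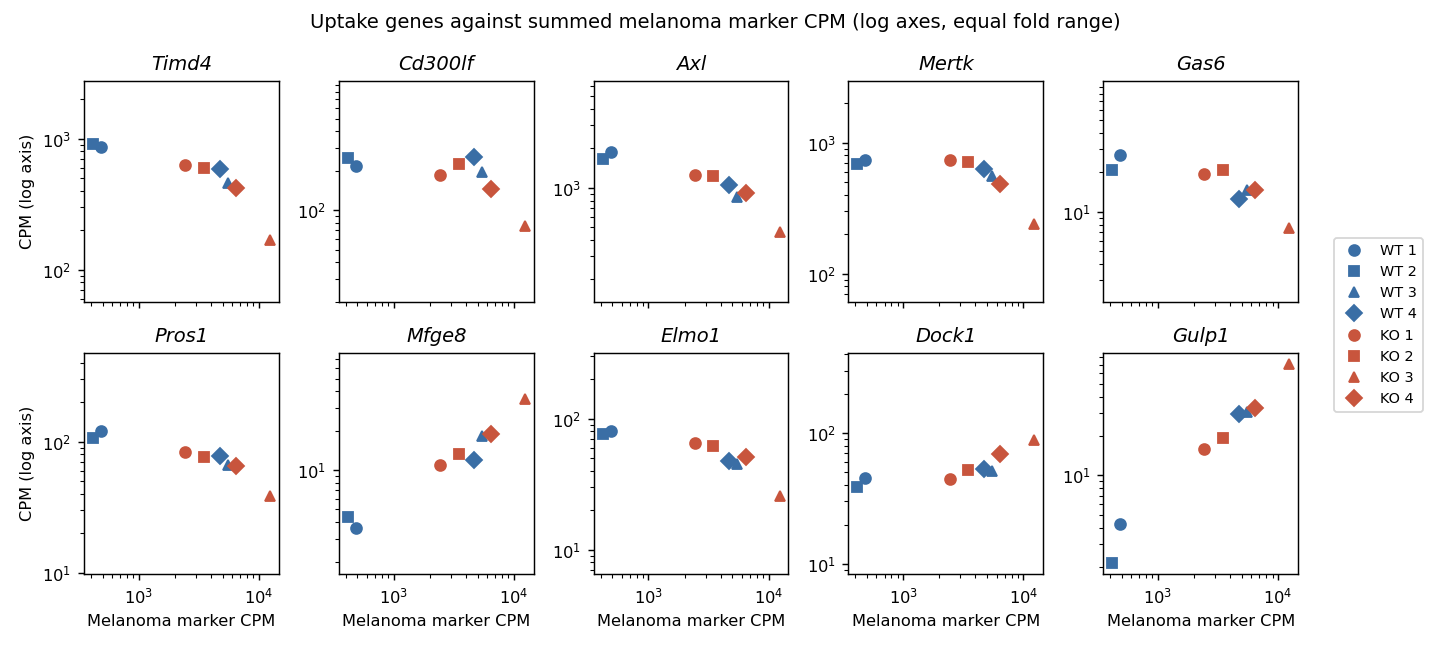
CPM of each uptake gene (vertical) against summed CPM of 10 melanoma markers (horizontal) in each of 8 libraries, both on log axes with the same fold range in every panel. KO 1 and KO 2 lie to the left of WT 3 and WT 4, and Mfge8, Dock1 and Gulp1 slope upward while the other 7 genes slope downward.

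Set against Kupffer markers in place of all counts, Timd4 hardly varied. It had 27.2, 29.0, 25.5 and 28.4 counts per 1000 Kupffer marker counts in the WT libraries 1 to 4, against 28.7, 27.9, 24.2 and 25.4 in KO, a 1.20-fold span where the CPM span was 5.36-fold. Axl spanned 1.40-fold (47.0 to 65.9), Mertk 1.57-fold (21.9 to 34.3), Elmo1 1.58-fold, Pros1 1.61-fold, Gas6 1.77-fold and Cd300lf 1.79-fold on this scale. For these 7 genes the libraries were thus closer together per Kupffer marker than in CPM. Dock1, Mfge8 and Gulp1 were further apart, with spans of 10.2-fold, 43.3-fold and 150.0-fold. Elmo1 (2.32 to 2.54 in WT, 2.91 to 3.65 in KO) and Gas6 (0.607 to 0.851 in WT, 0.891 to 1.07 in KO) were the 2 of 10 members whose genotypes did not overlap on this scale, both higher in KO, where 7.03% of all tested genes did not overlap and 6.89% were higher in KO. In edgeR with this scaling the median log2 fold change of all genes was 0.81. Relative to that shift all members but Mfge8, Dock1 and Gulp1 were lower. The log2 fold change was -0.053 ± 0.191 for Timd4 (0.83), 0.17 ± 0.175 for Axl (0.445), 0.30 ± 0.210 for Mertk (0.281), 0.37 ± 0.264 for Elmo1 (0.288) and 0.39 ± 0.309 for Gas6 (0.330), with the edgeR adjusted p in parentheses.

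**Figure D4:**
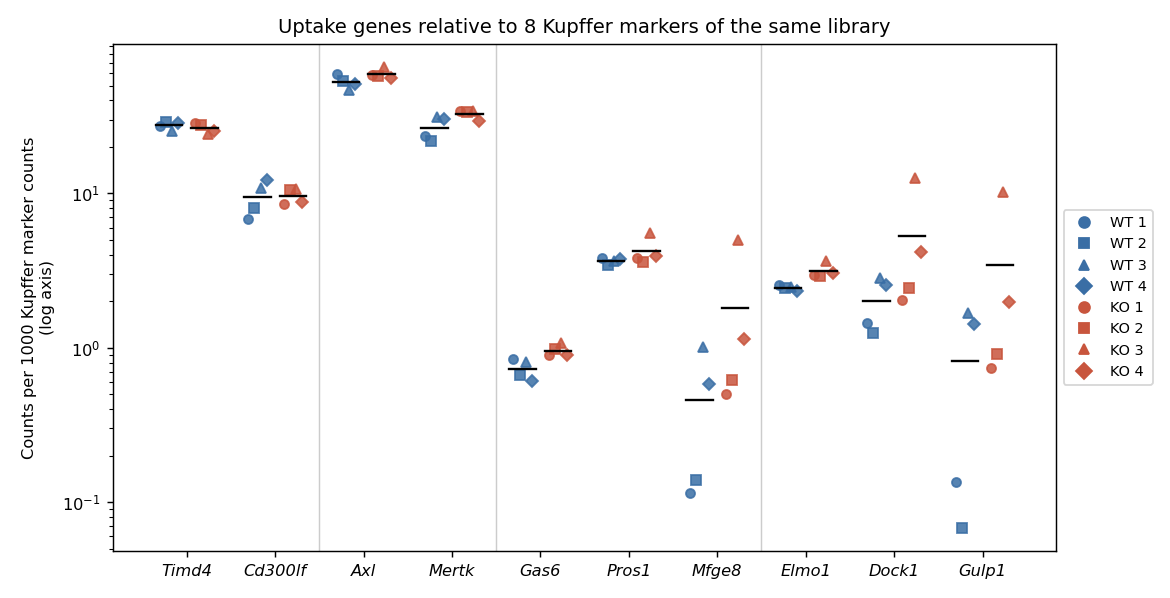
Counts of each uptake gene per 1000 counts of the 8 Kupffer markers of the same library (log axis), blue for WT and red for KO, with the mean of 4 libraries as a black bar. Timd4 stays between 24.2 and 29.0 in all 8 libraries, while Gulp1 runs from 0.068 in WT 2 to 10.2 in KO 3.

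With melanoma content as a covariate in the edgeR fit, the genotype differences were nearer 0, except that Gas6 went from -0.26 to 0.26. The log2 fold change was -0.13 ± 0.274 for Timd4, 0.073 ± 0.216 for Axl, 0.16 ± 0.187 for Mfge8 and -0.037 ± 0.166 for Gulp1 (edgeR adjusted p = 0.971, 0.977, 0.934 and 0.989). The lowest value was that of Cd300lf, -0.35 ± 0.281 (edgeR adjusted p = 0.893). The covariate is a linear term in log2 melanoma sum, and the sum was higher in KO for 4 of 4 same-numbered pairs (p = 0.125 by exact sign flips, a permutation test that can go no lower with 4 pairs).

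**Figure D5:**
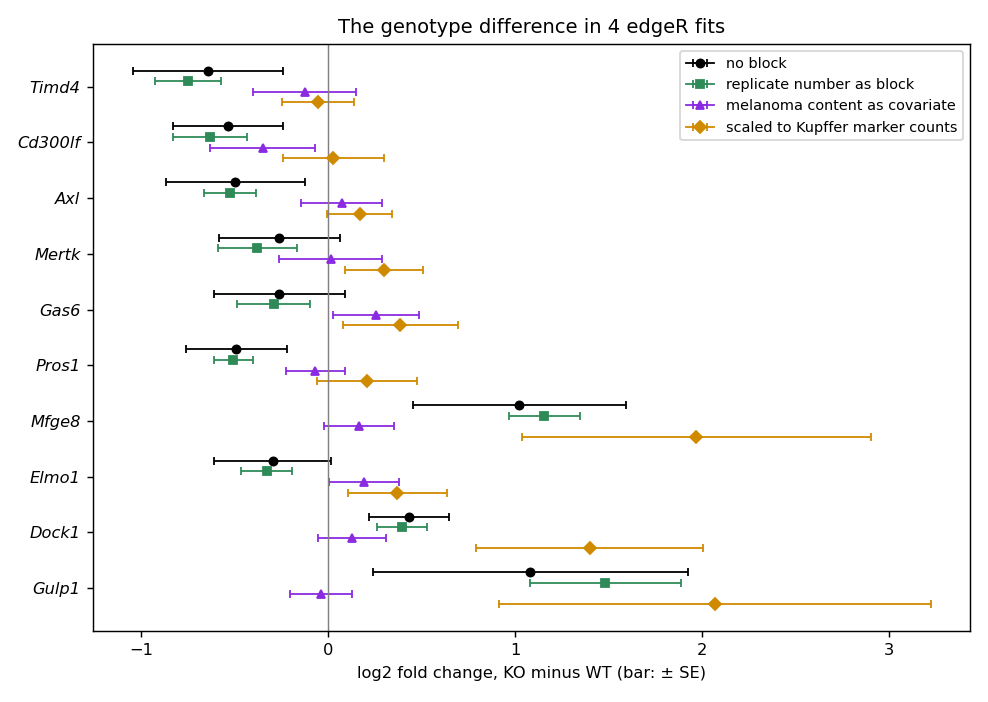
Log2 fold change of KO against WT (± SE) for each uptake gene in 4 edgeR fits of the 8 libraries, given by colour and shape. The unblocked and blocked values lie on the same side of 0 for every gene, while the values with the melanoma covariate are between -0.35 and 0.26.

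In the wider pathway no gene passed the unblocked test. Of 18 phosphatidylserine receptors and partners 17 were tested, with a median log2 fold change of -0.26 (all genes: -0.0028), 13 below 0 and 0 past the threshold. Without number 4 the blocked fit called 9 of the 17 (3 higher, 6 lower), where it called 2229 of 15925 genes (1475 higher, 754 lower). In all 7 pathway lists together, the blocked fit without number 1, 2 or 3 called no gene, except 1 of the TAM maturation list without number 1. With the block and all numbers kept, 2 of the 17 rose and 2 fell (8.98% and 5.01% of all genes did). The risers were Tyro3, the third TAM receptor (1.78, 1.52, 6.25 and 6.30 CPM in WT 1 to 4, 5.62, 6.33, 19.3 and 10.6 CPM in KO 1 to 4; blocked log2 fold change 1.49 ± 0.241, edgeR adjusted p = 0.0254), and the integrin subunit Itgb3 (9.89 ± 3.74 CPM across WT against 17.9 ± 3.78 CPM across KO; blocked edgeR adjusted p = 0.0256). Tyro3 was thus lowest in WT 1 and WT 2 and highest in KO 3, as Mfge8 and Gulp1 were, and unlike Axl and Mertk.

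All 8 bridging ligands were tested (median -0.38, 6 below 0, 0 past the threshold). With the block 1 rose, Mfge8, and 3 fell, Pros1, C1qa and C1qc (8.98% of all genes rose and 5.01% fell). C1qa and C1qc encode chains of the complement protein C1q, which also coats dying cells. They had 2577 ± 619 CPM across WT against 1732 ± 673 CPM across KO, and 2233 ± 575 and 1508 ± 599.8 CPM (blocked edgeR adjusted p = 0.0424 and 0.0422), and C1qb was at 2655 ± 629.6 and 1797 ± 707 CPM (0.0529).

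The 15 engulfment machinery genes had a median of 0.037, with 7 below 0. Rac1, the GTPase that ELMO and DOCK proteins act on, was at 418 ± 42.1 CPM across WT against 413 ± 20.0 CPM across KO (log2 fold change -0.017 ± 0.120, edgeR adjusted p = 0.945), and Rhog, a GTPase upstream of ELMO, at 192 ± 21.7 and 171 ± 31.2 CPM. None passed. With the block 2 of 15 rose, Gulp1 and the scaffold Bcar1 (4.05 ± 2.69 CPM across WT against 8.31 ± 4.73 CPM across KO; edgeR adjusted p = 0.0360), and none fell. Of all genes 8.98% rose and 5.01% fell in that fit.

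Of 17 phagosome maturation genes 15 were below 0 (median -0.15, all genes: -0.0028) and none passed. Without WT 1, WT 2 and KO 3, 4 of the 17 were below 0 (median 0.024). With the block 1 of 17 fell, where 5.01% of all genes did. It was Cybb, the NADPH oxidase subunit used in LC3-associated phagocytosis (1211 ± 417 CPM across WT against 785 ± 305 CPM across KO, edgeR adjusted p = 0.0300). The lysosomal protein Lamp1 was at 1469 ± 372 and 1160.0 ± 232 CPM and the oxidase subunit Cyba at 326 ± 59.7 and 267 ± 99.9 CPM. Of the 8 genes for signals that attract phagocytes or hold them back, 5 were below 0 (median -0.18). With the block 1 of 8 fell (5.01% of all genes did), Cd47, the signal that holds phagocytes back (419.7 ± 104 CPM across WT against 295 ± 109.8 CPM across KO, edgeR adjusted p = 0.0371). Its receptor Sirpa was at 923 ± 262 CPM across WT against 745 ± 173 CPM across KO.

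The 9 genes of the nuclear receptor response that follows uptake had a median of -0.36, with 8 below 0 and none past the threshold. Without WT 1, WT 2 and KO 3 their median was 0.20, with 2 of 9 below 0. With the block 3 of 9 fell, where 5.01% of all genes did: Tgm2, a transglutaminase that helps engulfment, the nuclear receptor Rxra and the cholesterol exporter Abcg1 (blocked log2 fold changes -0.70 ± 0.143, -0.53 ± 0.137 and -0.50 ± 0.137; edgeR adjusted p = 0.0286, 0.0438 and 0.0490). The oxysterol receptor Nr1h3 was at 330.1 ± 57.3 CPM across WT against 284 ± 105 CPM across KO, and Ucp2 at 1014 ± 147 and 792 ± 257 CPM. Of 11 genes for TAM ligand maturation, shedding and feedback 9 were tested (median -0.29, 7 below 0, 0 past the threshold). With the block Adam10, a protease that sheds Axl, fell, and Ggcx, the vitamin K-dependent carboxylase that matures Gas6 and protein S, rose (blocked log2 fold changes -0.44 ± 0.106 and 0.47 ± 0.116; edgeR adjusted p = 0.0380 and 0.0382). Of all genes 5.01% fell and 8.98% rose in that fit. Of the 7 lists, 5 had a median above 0 when melanoma content was a covariate, and the exceptions were the bridging ligands (-0.15) and the TAM maturation list (-0.0086). The median of all genes in that fit was 0.014, close to that of the phagosome list (0.017). Without WT 1, WT 2 and KO 3, genes below 0 numbered 3 of 17 phosphatidylserine receptors and 4 of 8 bridging ligands. They numbered 4 of 15 in the engulfment list, 1 of 8 in the signal list and 4 of 9 in the TAM maturation list. List medians there ran from -0.011 (bridging ligands) to 0.20 (nuclear receptor list), with all genes at -0.00022. With scaling to Kupffer markers they ran from 0.27 to 0.83, with all genes at 0.81.

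Among 9778 other genes with a mean of at least 10 CPM, those whose log2 CPM followed Timd4 most closely over the 8 libraries were Blvrb, a biliverdin reductase (Pearson r = 0.999), Soat1, an enzyme that esterifies cholesterol (0.999), BC005537 (0.999), the mannose receptor Mrc1 (0.998) and Stom (0.998). Closest to Axl were Ptprj, Tor4a, Pilra, Sdc3 and Slc8a1 (r = 0.996 to 0.997), and closest to Mertk were Tm6sf1, Rbm47, Adap2, Acrbp and Zbtb34 (0.988 to 0.994). The 3 receptors had no gene in common among their 5 nearest, but genes beyond the first 5 of 9778 were not compared. The empty overlap therefore does not show that the receptors follow different genes. These r values describe 8 libraries that share the melanoma gradient and were picked as the highest of many, so they carry no p.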

How the data were processed

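Kupffer cell RNA was measured in 8 bulk RNA-seq libraries, 4 WT and 4 KO. The deposited table holds raw counts per gene and the FPKM values that the authors made from them, per the file headers; HTSeq 0.6.1 and mm10 are named in the submitters' processing notes. For the aligner, the strand setting and the gene models nothing is named (not given in the sources used here). FPKM matched count over exonic size and column total within 0.015 for 100% of genes. Gene sizes and positions are other deposited numbers; the positions of the members differ from those in GRCm38 (GENCODE M21) although mm10 is named, so they were not used. Promoters and exon overlaps are on GRCm38. The deposited exonic sizes of all 10 members equal those in GENCODE M21. Column letters K and C were read as KO and WT and the digit as the title's number.

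Genes were kept by filterByExpr (15870 of 56691), scaled by TMM and tested with the quasi-likelihood test of edgeR 4.0.16 (R 4.3.3), 2-sided, with p-values adjusted by Benjamini-Hochberg across the 15870. CPM use the same scaling. Alternatives were the replicate number as a block, RLE factors, no filter, DESeq2 1.42.0, limma 3.58.1 on log2(FPKM + 1), left-out libraries, a melanoma covariate and scaling to Kupffer marker counts. Ratios and marker sums were tested by exact permutation (70 groupings), correlations by enumerating all pairings. The fitting code was tested on simulated data. A count of 3, the floor for a gene at 0, is 0.153 to 0.213 CPM, for counting error only.

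The members, lists and alternatives were chosen with earlier results of these data known. All 10 members are named; from each list the rule names up to 4 members past the threshold in either fit, or the 2 with the highest FPKM; likeness takes the 5 highest r. A listed gene that the rule names is not reported here. Deviations from the genotype means correlated between same-numbered libraries at 0.561, 0.544, 0.660 and 0.290, all above 0.1. The blocked fit therefore stands beside the unblocked main test. The pairing comes from the values, not the labels: WT 2, WT 4, KO 1 and KO 4 correlated best with another number (KO 1, KO 3, WT 2 and WT 3). Melanoma sums were lowest for numbers 1 and 2 in both genotypes, and their part in these correlations was not tested. No pair of same-genotype libraries was a duplicate (chi-square per degree of freedom at least 11.2).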

Additional observations from a re-analysis of the deposited data

How the results depend on the processing

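No member was called without the block under any alternative run, and Dock1 kept its direction in all 20. The count of genes past the threshold over all genes was 1, against 2220 with the replicate block, 2 without the filter on low counts, 62 in DESeq2, 1 to 2 without a single library and, in the replicate block, 207 without number 1, 2 without 2, 1 without 3 and 2229 without 4. With the melanoma covariate, log2 fold changes turned for Mertk (0.014), Axl (0.073), Gas6 (0.26), Elmo1 (0.19) and Gulp1 (-0.037). With scaling to Kupffer markers, which moves the median of all genes by 0.81, they turned for Mertk (0.30), Axl (0.17), Gas6 (0.39), Pros1 (0.21), Elmo1 (0.37) and Cd300lf (0.029). Without WT 1, WT 2 and KO 3, the libraries lowest and highest in melanoma content, they turned for Timd4 (0.062), Mertk (0.13), Axl (0.26), Gas6 (0.44), Pros1 (0.069), Mfge8 (-0.079), Elmo1 (0.36) and Gulp1 (-0.39). The cause was not tested. Without KO 3 alone, the log2 fold change was -0.37 for Timd4, -0.30 for Cd300lf, -0.27 for Axl, -0.31 for Pros1, -0.078 for Elmo1, 0.59 for Mfge8, 0.23 for Dock1 and 0.47 for Gulp1; Elmo1 was also at -0.15 without WT 1 and -0.18 without WT 2, Axl at -0.30 without WT 1, and Gulp1 at 0.71 without WT 2. With the replicate block and number 4 left out, Timd4, Axl, Pros1, Mfge8 and Gulp1 stayed called (edgeR adjusted p = 0.0384, 0.0361, 0.0188, 0.0104 and 0.0133). Low counts limit Gulp1 and Mfge8 most, at 38 counts in WT 2 and 51 in WT 1.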
